A study of Saccharomyces cerevisiae with 12 samples.

Results

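The cell fusion genes examined here were the 10 pheromone-induced genes *FUS1*, *FUS2*, *FIG1*, *FIG2*, *AGA1*, *KAR4*, *KAR5*, *PRM1*, *PRM2* and *PRM5* of *Saccharomyces cerevisiae*, chosen by name from the 7130 genes listed for each strain. All 10 were found in the tables of both strains. RNA sequencing covered 4 conditions with 3 cultures each: the tetO-*GLN4* strain (McFY2) grown with 1 μg/ml doxycycline and without it, and the wild-type strain BY4742 grown with 1 μg/ml and without it. Both strains were MATalpha and carried the *his3D1*, *leu2D0*, *lys2D0* and *ura3D0* alleles, and tetO-*GLN4* carried in addition *PGLN4::KanMX4-tTA-tetO7*, a tet-off promoter through which doxycycline shuts off *GLN4*, the gene of the glutaminyl tRNA synthetase. The cultures were grown from separate colonies in rich medium to mid-log phase, and all tetO-*GLN4* cultures were of the 1 strain McFY2. No mating partner or pheromone treatment was part of the design. The labelled mating type was checked against 4 α-specific genes, whose summed level (in FPKM, the unit explained below) was 297 in tetO-*GLN4* with doxycycline and 18668 without it, and 17035 with and 18332 without doxycycline in the wild type. These markers thus went against the MATalpha label in tetO-*GLN4* with doxycycline, and each value below from that condition is one of cells with low α-specific mRNA.

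Haploid yeast cells respond to the pheromone of the opposite mating type through a receptor, a heterotrimeric G protein and a MAP kinase cascade, which releases the transcription factor Ste12p from inhibition. Ste12p binds pheromone response elements in the promoters of genes that serve each step of mating: agglutination of the partners, polarized growth, fusion of the walls and plasma membranes, and fusion of the nuclei (karyogamy). Many of these genes are also transcribed at a low basal level in haploid cells that have met no partner.

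The expression unit was the FPKM (fragments per kilobase of gene, scaled to the mapped fragments of the library), given as 1 value per gene and condition that pooled the 3 cultures, with its 95% confidence interval. A gene was called lower or higher with doxycycline where the confidence intervals of both conditions of a strain lay apart. The log2 ratio is that of the FPKM with doxycycline to the FPKM without it, with an SD taken from the intervals. In RNA from whole cultures, fewer expressing cells and less RNA per cell cannot be told apart. In tetO-*GLN4*, 6553 genes had a ratio, with a median log2 ratio of 0.01. For the wild type 6560 genes had one, with a median of -0.0031. *GLN4* itself had 30.5 FPKM (24.1 to 36.9) in tetO-*GLN4* with doxycycline, while the value without it is listed at 0 with a failed status, so that no ratio can be given. Wild-type cells had *GLN4* at 199.2 FPKM with and 199.3 FPKM without doxycycline.

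The promoters of the members were searched for the element that Ste12p is known to bind. The exact pheromone response element TGAAACA was searched on both strands in the 300 bases from 250 before to 50 after each start codon of the R64 genome (RefSeq). Of the 10 members 7 held it at least once, and 4 held it at least 2 times. Of 6001 promoters of the same length 450 held it (7.50%), and 25 held it at least 2 times (0.417%). The following 170-base stretches, from base 250 to base 81 before the start codon and written along the gene, show 4 members that held the element and had lower mRNA in tetO-*GLN4* with doxycycline. Capitals mark TGAAACA or its reverse complement TGTTTCA.
PRM1 (chrXIV:110667-110836, forward strand): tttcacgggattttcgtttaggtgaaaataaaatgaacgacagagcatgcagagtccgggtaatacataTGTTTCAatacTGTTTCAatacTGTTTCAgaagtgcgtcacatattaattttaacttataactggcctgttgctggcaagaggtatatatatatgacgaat
FUS1 (chrIII:71553-71722, forward strand): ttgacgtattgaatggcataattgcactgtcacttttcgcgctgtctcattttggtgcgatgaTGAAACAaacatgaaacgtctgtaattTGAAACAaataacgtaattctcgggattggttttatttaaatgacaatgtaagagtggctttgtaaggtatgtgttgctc
KAR4 (chrIII:27679-27848, forward strand): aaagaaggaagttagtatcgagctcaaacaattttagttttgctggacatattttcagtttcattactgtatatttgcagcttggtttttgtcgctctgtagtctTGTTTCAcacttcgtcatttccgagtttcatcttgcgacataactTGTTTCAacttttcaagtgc
AGA1 (chrXIV:703449-703618, forward strand): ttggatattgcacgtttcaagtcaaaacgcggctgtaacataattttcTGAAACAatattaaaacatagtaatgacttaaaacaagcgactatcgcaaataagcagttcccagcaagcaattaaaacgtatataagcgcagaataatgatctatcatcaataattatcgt

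*PRM1* carried 3 copies on the opposite strand, the first base of each lying 181, 170 and 159 bases before the start codon. *FUS1* carried 2 copies on the gene's strand at 187 and 160, *KAR4* 2 on the opposite strand at 145 and 100, and *AGA1* 1 on the gene's strand at 202. *FUS2* held 2 copies at 221 and 200. The next stretches show 2 members that held the element and were not lower, *PRM2* and *PRM5*, and *FIG1*, which held no exact copy and had the lowest ratio of the 10.
PRM2 (chrIX:285080-285249, reverse strand): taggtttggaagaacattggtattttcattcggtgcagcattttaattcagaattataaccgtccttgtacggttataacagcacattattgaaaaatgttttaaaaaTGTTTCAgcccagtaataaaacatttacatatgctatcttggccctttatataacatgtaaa
PRM5 (chrIX:141650-141819, reverse strand): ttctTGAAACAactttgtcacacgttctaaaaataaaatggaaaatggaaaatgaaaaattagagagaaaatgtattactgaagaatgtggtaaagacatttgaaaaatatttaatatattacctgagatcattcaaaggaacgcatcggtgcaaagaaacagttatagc
FIG1 (chrII:316718-316887, forward strand): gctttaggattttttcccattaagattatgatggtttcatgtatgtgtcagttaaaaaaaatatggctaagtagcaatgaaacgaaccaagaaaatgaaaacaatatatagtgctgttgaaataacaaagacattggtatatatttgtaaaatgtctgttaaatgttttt

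The copy of *PRM2* lay at 142 and that of *PRM5* at 246. *FIG1*, *FIG2* and *KAR5* held no exact copy in this window, which says only that these letters are not there. In this window *FIG1* with no exact copy and *AGA1* with 1 had lower ratios than *PRM1* with 3. The counts depended on the window. In the 500 bases before the start codon 8 members held the element, 5 of them at least 2 times, with 14 copies in all. Of 6000 promoters of that length 721 held it. Whether the number of copies went with the size of the response was not tested.

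**Figure D1:**
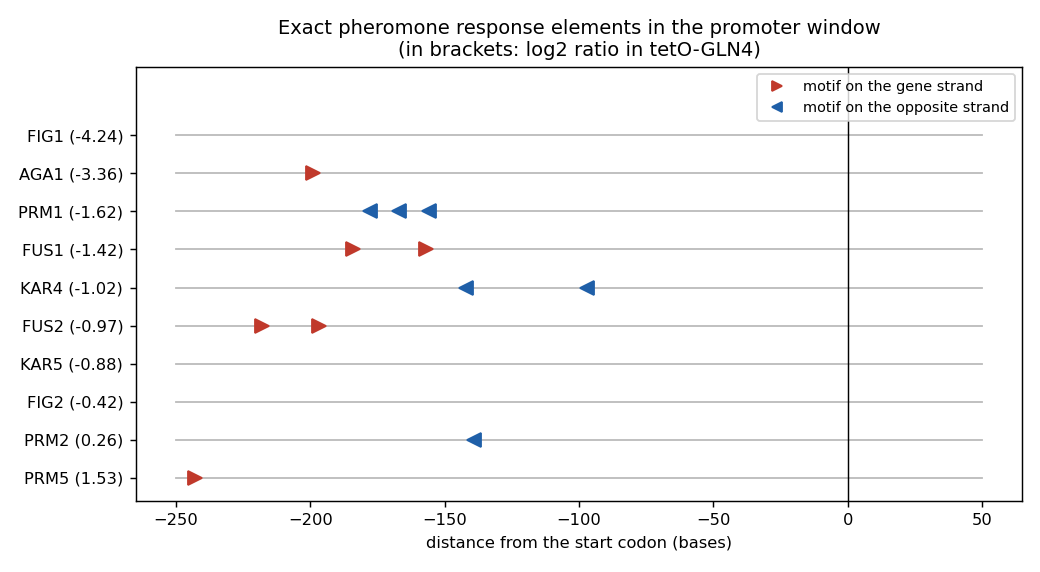
Exact copies of the pheromone response element in the 10 promoters. The horizontal axis is the distance from the start codon in bases, each line is the 300-base window of 1 gene, right-pointing triangles are copies on the gene's strand and left-pointing triangles copies on the opposite strand, and genes are ordered by their log2 ratio in tetO-GLN4, in brackets. The 12 copies lie between 246 and 94 bases before the start codon.

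With doxycycline, 7 of the 10 genes fell in tetO-*GLN4*, 1 rose and 2 were not called, while none was called in the wild type. The genes that fell were the adhesin gene *AGA1*, the membrane and fusion genes *FIG1*, *FUS1*, *FUS2* and *PRM1*, and the karyogamy genes *KAR4* and *KAR5*. The gene that rose was *PRM5*. Over all genes of tetO-*GLN4* the intervals lay apart with a lower level for 16.1% (1052 genes) and with a higher level for 15.0% (984 genes). In the wild type they lay apart for 0.152% of genes in either direction (10 genes). The median log2 ratio of the 10 members was -0.99 in tetO-*GLN4* and -0.05 in the wild type. Of the members 5 were at least 2-fold lower in tetO-*GLN4*, against 10.1% of all genes. *PRM5* was at least 2-fold higher, as were 689 of all 6553 genes.

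**Figure D2:**
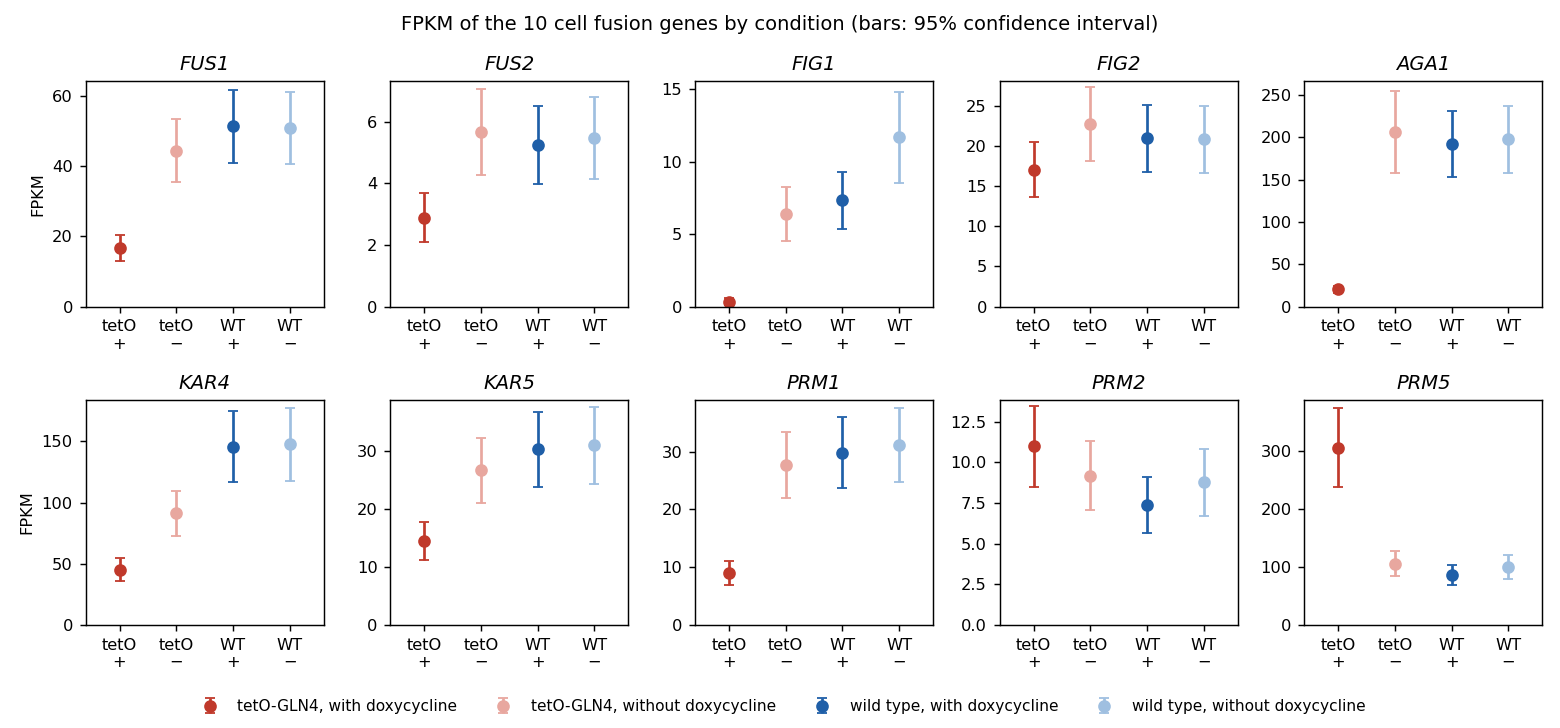
FPKM of the 10 genes in the 4 conditions. Each panel is 1 gene, the vertical axis is the FPKM from 0, points are the deposited values that pool 3 cultures and bars their 95% confidence intervals; tetO is tetO-GLN4, WT the wild type, + with and − without doxycycline. The red point of tetO-GLN4 with doxycycline lies apart from its untreated counterpart in 8 panels, below it in 7 and above it for PRM5.

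The adhesins of the cell surface differed in their response. *AGA1* (YNR044W, chromosome XIV, 703699 to 705876, R64) encodes the wall-anchored subunit of the a-agglutinin, through which mating cells adhere. It had 20.1 FPKM (15.9 to 24.3) in tetO-*GLN4* with doxycycline and 206 FPKM (158 to 255) without it. This is a 10.3-fold decrease, with a log2 ratio of -3.36 (SD 0.23). Wild-type *AGA1* had 192 FPKM (153 to 231) with doxycycline and 197 FPKM (158 to 237) without it. The wild-type intervals overlapped, while those of tetO-*GLN4* lay far apart. *FIG2* (YCR089W, chromosome III, 267434 to 272263), an adhesin-like wall protein of mating cells, had 17.0 FPKM (13.6 to 20.4) in tetO-*GLN4* with doxycycline and 22.7 FPKM (18.1 to 27.4) without it. The intervals overlapped, and the log2 ratio was -0.42 (SD 0.21), with an interval of -0.83 to -0.0014. Its wild-type levels were 20.9 FPKM with and 20.8 FPKM without doxycycline. Of the 50-base stretches of the *FIG2* coding region 6.73% recur within the gene, while no such stretch of any member recurs elsewhere in the genome.

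The genes of the shmoo membrane and of cell fusion fell together but by different amounts. *FIG1* (YBR040W, chromosome II, 316968 to 317864) encodes a membrane protein of calcium influx during mating. It had 0.339 FPKM (0.0832 to 0.595) in tetO-*GLN4* with doxycycline and 6.41 FPKM (4.55 to 8.26) without it, an 18.9-fold decrease with a log2 ratio of -4.24 (SD 0.58). Its SD was the widest of the 10, and its ratio stood at percentile 0.122 of all genes. *PRM1* (YNL279W, chromosome XIV, 110917 to 112902) encodes a membrane protein that acts in the merger of the plasma membranes. It had 9.03 FPKM (6.94 to 11.1) in tetO-*GLN4* with doxycycline and 27.7 FPKM (22.0 to 33.3) without it, a 3.06-fold decrease. *FUS1* (YCL027W, chromosome III, 71803 to 73341), a membrane protein of the shmoo tip, had 16.6 FPKM (13.0 to 20.3) with doxycycline and 44.4 FPKM (35.4 to 53.4) without it, a 2.67-fold decrease. *FUS2* (YMR232W, chromosome XIII, 736926 to 738959), which acts with Rvs161p in cell fusion, had 2.88 FPKM (2.08 to 3.68) with doxycycline and 5.66 FPKM (4.25 to 7.07) without it, a 1.97-fold decrease. The gap between its intervals was 0.571 FPKM, the narrowest among the genes that fell. *FUS1* stood at 51.5 FPKM with and 51.0 FPKM without doxycycline in the wild type, *PRM1* at 29.8 and 31.1 FPKM, and *FUS2* at 5.24 and 5.47 FPKM, in the same order of conditions.

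The karyogamy genes *KAR4* and *KAR5* fell, and *PRM2* was not called. *KAR4* (YCL055W, chromosome III, 27929 to 28936) encodes a transcription factor that acts with Ste12p on genes of nuclear fusion. It had 45.2 FPKM (35.7 to 54.7) in tetO-*GLN4* with doxycycline and 91.3 FPKM (72.8 to 110) without it, a 2.02-fold decrease. Wild-type cells had 146 FPKM with and 147.5 FPKM without doxycycline. *KAR5* (YMR065W, chromosome XIII, 399702 to 401216), a protein of the nuclear envelope needed for its fusion, had 14.4 FPKM (11.1 to 17.7) in tetO-*GLN4* with doxycycline and 26.6 FPKM (21.0 to 32.2) without it, a 1.85-fold decrease. Its wild-type levels were 30.2 FPKM with and 30.9 FPKM without doxycycline. *PRM2* (YIL037C, chromosome IX, 283029 to 284999), a pheromone-regulated membrane protein, had 11.0 FPKM (8.51 to 13.5) in tetO-*GLN4* with doxycycline and 9.16 FPKM (7.04 to 11.3) without it. The intervals of *PRM2* overlapped, and its log2 ratio of 0.26 had an interval of -0.20 to 0.73. Its wild-type levels were 7.37 FPKM with and 8.79 FPKM without doxycycline, and these intervals overlapped as well.

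*PRM5* (YIL117C, chromosome IX, 140613 to 141569) was the one member that rose. It encodes a pheromone-regulated membrane protein whose gene is also known as a target of the cell wall integrity pathway and its transcription factor Rlm1p. It had 305 FPKM (237 to 373) in tetO-*GLN4* with doxycycline and 106 FPKM (84.6 to 127) without it, a 2.88-fold increase with a log2 ratio of 1.53 (SD 0.22). Wild-type *PRM5* had 86.4 FPKM (68.9 to 104) with doxycycline and 100.2 FPKM (80.0 to 120) without it.

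The scale of the tetO-*GLN4* table bears on these calls. The FPKM-weighted mean log2 ratio of all genes was -0.67. Centred on that mean, *AGA1*, *FIG1*, *FUS1* and *PRM1* were still called lower, the calls of *FUS2* (-0.30), *KAR4* (-0.34) and *KAR5* (-0.21) were lost, *PRM2* (0.93) was called higher beside *PRM5*, and the sign of *FIG2* turned to 0.26. On that scale 280 genes were lower and 3006 higher, against 1052 lower and 984 higher on the deposited scale.

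The relative order of the members changed with doxycycline in tetO-*GLN4*. FPKM is scaled to gene length, which allows levels of different genes to be compared. With doxycycline *PRM5* was the highest and made up 69.1% of the summed FPKM of the 10 genes, followed by *KAR4* and then by *AGA1*. Next to each other in that order, *AGA1*, *FIG2*, *FUS1*, *KAR5*, *PRM2* and *PRM1* did not differ beyond their intervals, while *FUS2* and then *FIG1* stood below them. Without doxycycline *AGA1* was the highest with 37.8% of the sum and *PRM5* the next with 19.4%, and the intervals of *PRM5* and *KAR4* overlapped. *FUS1* followed apart from its neighbours, then *PRM1*, *KAR5* and *FIG2* with overlapping intervals, and *PRM2*, *FIG1* and *FUS2* closed the order, each overlapping the next. In the wild type the order with doxycycline was *AGA1*, *KAR4*, *PRM5* and *FUS1*, then *KAR5*, *PRM1* and *FIG2*, and *PRM2*, *FIG1* and *FUS2* last, and without doxycycline the same groups held the same places. Thus *PRM5* was 15.2-fold above *AGA1* in tetO-*GLN4* with doxycycline, and *AGA1* was 1.95-fold above *PRM5* without it. The highest member was 900-fold above the lowest in tetO-*GLN4* with doxycycline, and 36.5-fold without it.

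The question whether doxycycline acted differently on the strains was addressed by the difference of the log2 ratios, tetO-*GLN4* minus wild type. Each ratio was taken within its own table, because the strains were normalized separately. The difference lay below 0 by more than 2 SDs for 7 members, against 17.3% of all genes, and above 0 for 1 member, against 15.5% of all genes. It was -3.56 (SD 0.64) for *FIG1*, -3.32 (SD 0.31) for *AGA1*, and 1.74 (SD 0.30) for *PRM5*. For *FIG2* it was -0.42, with an interval of -1.004 to 0.16, and for *PRM2* 0.52, with an interval of -0.15 to 1.18, so that no difference between the strains was resolved for them. *FIG1* had the lowest ratio of the members in the wild type. It had 7.32 FPKM (5.37 to 9.27) with doxycycline and 11.7 FPKM (8.55 to 14.8) without it. These intervals overlapped, while the log2 ratio of -0.67 had an interval of -1.22 to -0.13, the only member ratio in that strain to leave out 0. The log2 ratios of the 9 others lay between -0.25 and 0.01 in the wild type.

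**Figure D3:**
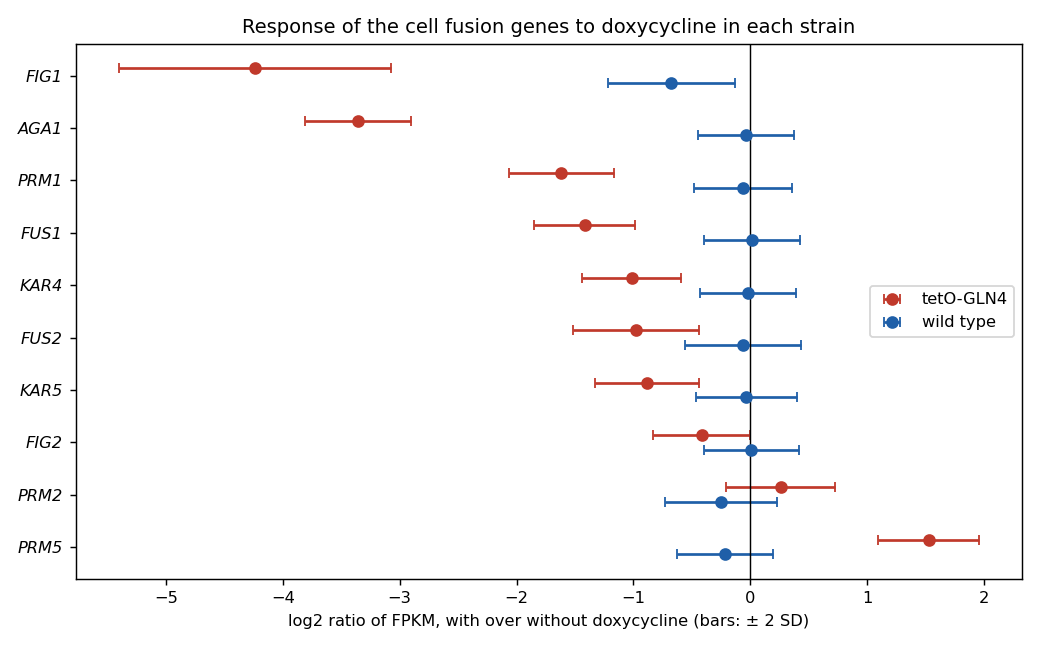
Log2 ratio of the FPKM with over without doxycycline for the 10 genes. Points are the ratios in tetO-GLN4 (red, upper) and in the wild type (blue, lower), and bars are ± 2 SD from the confidence intervals. In tetO-GLN4 the ratios run from -4.24 for FIG1 to 1.53 for PRM5, while in the wild type they lie near 0 except for FIG1 at -0.67.

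Other genes of the pathway were counted in the same way, from lists on which some genes stand more than once. Each list count below stands beside all genes of tetO-*GLN4*, of which 16.1% were lower and 15.0% higher. When centred, 280 of the 6553 genes were lower and 3006 higher, so a rise on that scale is common. Of 16 other pheromone-induced genes 4 fell and 2 rose in tetO-*GLN4*, and the median log2 ratio was -0.30. Centred on the FPKM-weighted mean, 3 fell and 4 rose, with a median of 0.38. *PRM6*, a pheromone-regulated membrane protein, had the lowest ratio, with 0.214 FPKM with and 7.84 FPKM without doxycycline. *PRM10*, another pheromone-regulated gene, had the highest, with 33.7 FPKM with and 12.2 FPKM without doxycycline. Of 21 signalling genes 9 fell and 1 rose, with a median of -0.40, while 6 fell and 8 rose when centred, with a median of 0.27. *STE12*, the gene of the transcription factor itself, had 31.6 FPKM (25.2 to 37.9) with and 84.5 FPKM (66.4 to 103) without doxycycline. The lowest ratio of that list belonged to *STE3*, the receptor gene of α cells, at -5.73, and the highest to *STE11*, a kinase of the cascade, at 0.92.

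Of 13 genes of karyogamy and fusion that are not members, 4 fell and none rose, while centred on the FPKM-weighted mean none fell and 2 rose. Their lowest ratio was -1.04 for *PRM3*, a nuclear envelope protein of karyogamy, and their highest 0.23 for *JEM1*, a chaperone of the endoplasmic reticulum, which was not called. Genes of the cell wall integrity pathway and its Rlm1p targets, to which *PRM5* is also assigned, moved both ways, as 3 of 11 rose and 3 fell (6 and 2 when centred). On the centred scale 3006 of all 6553 genes were higher and 280 lower. *PIR3*, a wall protein, had 395 FPKM with and 25.2 FPKM without doxycycline in tetO-*GLN4*. *CWP1*, another wall protein, had the lowest ratio of that list at -2.46. No gene of any of these lists was called in the wild type.

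Markers of mating type moved in different directions in tetO-*GLN4* with doxycycline. The 4 α-specific genes *MF(ALPHA)1*, *MF(ALPHA)2*, *STE3* and *SAG1* all fell in tetO-*GLN4*, with log2 ratios from -6.30 to -5.45. The 2 pheromone genes are related in sequence, so that their single values are less certain. The 7 a-specific genes summed to 281 FPKM with and 158 FPKM without doxycycline, and 3 of them rose (*STE6*, *ASG7* and *BAR1*, with log2 ratios from 1.26 to 1.36), or 5 when centred. The lowest ratio of the 7 was 0.43 for *MFA2*, which was not called. Of 9 haploid-specific genes 6 fell and none rose, or 3 fell and 1 rose when centred on the FPKM-weighted mean. Their lowest ratio was -2.33 for *FAR1*, and their highest 0.59 for *STE18*, which was not called. The a-specific sum in the wild type was 169 FPKM with and 186 FPKM without doxycycline. The mating type genes *MATALPHA1* and *MATALPHA2* are listed at 0 in all 4 conditions, as are *HMLALPHA1* and *HMLALPHA2*. The wild type, with its high α-specific mRNA, is among these conditions, so the zeros do not tell whether these genes were transcribed. The part of these markers in the fall of the members was not tested. *KAR4*, *FUS1* and *FIG2* lie on chromosome III with the mating type locus, and the 175 genes of that chromosome had a median log2 ratio of -0.01 in tetO-*GLN4*.

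**Figure D4:**
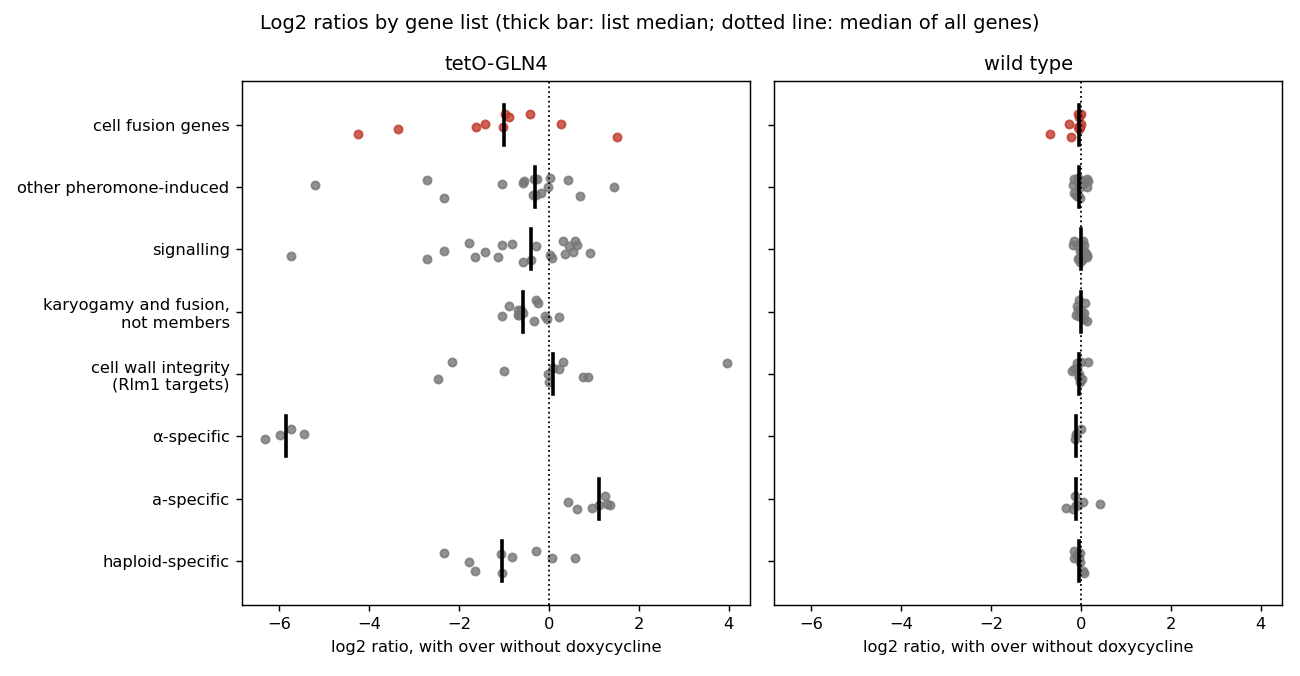
Log2 ratios with over without doxycycline for the 10 genes and 7 other lists, in tetO-GLN4 (left) and in the wild type (right). Each point is 1 gene, the thick bar is the median of its list and the dotted line the median of all genes; vertical scatter within a list only separates points. In tetO-GLN4 the medians are -0.99 for the cell fusion genes, -5.85 for the α-specific genes and 1.13 for the a-specific genes, and in the wild type the list medians lie between -0.10 and 0.01.

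The genes whose pair of log2 ratios in the 2 strains lay nearest to the median pair of the members (-0.99 in tetO-*GLN4* and -0.05 in the wild type) were *LCL1*, *RPL16B*, YOL153C, *FAA3* and *RFS1*, at Euclidean distances from 0.0158 to 0.0204. Likeness over 2 ratios is a weak measure, since 137 of 6368 genes lay within 0.1 of that pair.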

How the data were processed

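Per the paper's methods and the submitters' processing notes, reads of TruSeq stranded mRNA libraries were mapped with TopHat (1.4.0) to sacCer3 (R64). The deposited FPKM values and their 95% confidence bounds were made by the authors with Cuffdiff, which pooled the 3 cultures of a condition and normalized the conditions of 1 strain together. The deposited comparison tables (fold changes, p and q values of the authors) were not used. No values per culture or counts were analysed, and low FPKM values did not fall on whole-read steps, so that the depth is unknown and no test over cultures was possible. For the steps, each of 500 candidates was compared with those of the 300 lowest values that lay in its range. At most 19.6% of the values so compared lay within 0.05 of a multiple.

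Log2 ratios were computed with no pseudocount for genes with status OK and an FPKM above 0 in both conditions. The distance from the FPKM to its upper bound was taken as 2 SDs, and a gene was called where the intervals lay apart. The intervals carry Cuffdiff's own model of the spread. The calls were tested on simulated data whose spread was taken from the wild-type intervals. Such data cannot show whether the intervals hold across cultures. Of 6048 genes matched by ID to R64, 89.1% had the same start and end, all members included, and no member overlapped another listed gene. *FKS2* was matched as *GSC2*. The members and lists were chosen with earlier results of these data known. The genes named were the members, *GLN4*, *STE12*, the lowest and highest ratio of each list, the mating type markers and the 5 genes of nearest pattern. Alternatives were other pseudocounts, filters, centrings, calls and SDs. Python 3.11.15 with pandas 2.3.3 and numpy 2.4.6 was used.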

Additional observations from a re-analysis of the deposited data

Results flagged for a closer look

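The response to doxycycline differed between the strains for 8 of the 10 genes, as the difference of the log2 ratios (tetO-*GLN4* minus wild type) lay more than 2 SDs from 0. By the same rule, the difference lay below 0 for 17.3% of all genes and above 0 for 15.5%. Beside the values given above for *FIG1* (-3.56), *AGA1* (-3.32) and *PRM5* (1.74), it was -1.56 for *PRM1*, -1.43 for *FUS1*, -0.997 for *KAR4*, -0.91 for *FUS2* and -0.85 for *KAR5*. The strains are 2, with pooled values, so that a difference between them rests on the confidence intervals and was not checked culture by culture.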

How the results depend on the processing

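Of 100 values of counts and medians recomputed under the alternatives, 86 stayed within 1.5 times of the value reported or, for medians, within 1 SD. Centred on the FPKM-weighted mean, 4 members were lower and 2 higher in tetO-*GLN4*, all genes gave 280 lower and 3006 higher, the members' median log2 ratio was -0.32, and *FIG2* turned to 0.26. On that scale the strains differed for 4 members with a lower and 2 with a higher ratio, and for 3333 genes in all, against 2146 on the deposited scale. This centring adds 1 constant to every ratio of a table. Where the ratio itself had to leave out 0 by 2 SDs, 1 member (*FIG1*) was lower in the wild type, with 10 genes lower and 14 higher in all. With a fold of at least 2 alone, 660 genes were lower and 689 higher in tetO-*GLN4*, and 34 lower and 40 higher in the wild type. Of 119 single log2 ratios of members recomputed, 114 kept their direction and call, and all 5 others came from the FPKM-weighted centring. These 119 values all used the call by intervals, and the other call rules changed calls of members in tetO-*GLN4*. Where the ratio had to leave out 0, 8 members were lower instead of 7, with *FIG2* added. With a fold of at least 2, 5 were lower, without *FUS2* and *KAR5*. Pseudocounts and FPKM minimums could not change the direction or the call of a member that kept a value. Those agreements, and the counts of genes with intervals apart under a pseudocount, were thus fixed in advance and say nothing about robustness. *FIG1* had no value in tetO-*GLN4* with an FPKM minimum of 1 in both conditions. No paired analysis was possible because the deposited values pool the 3 cultures of a condition, which also allowed no culture to be left out. Levels near 0, as for *FIG1*, limit the precision of a ratio.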

Other observations

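Untreated levels of the members were set side by side across the strains as values only, since the tables were normalized separately and no test was made. The median FPKM of all listed genes without doxycycline was 48.3 in tetO-*GLN4* and 42.3 in the wild type. *KAR4* had 91.3 FPKM (72.8 to 110) in untreated tetO-*GLN4* and 147.5 FPKM (118 to 177) in the untreated wild type. *FIG1* had 6.41 FPKM (4.55 to 8.26) and 11.7 FPKM (8.55 to 14.8) in the same order. The other 8 members had overlapping intervals between the untreated strains. The share of all genes with intervals apart between the untreated strains was not computed, so *KAR4* and *FIG1* cannot be set against it.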
